A study of Rattus norvegicus with 15 samples.

Results

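The genes described here are the chemokines and chemokine receptors of rat bone, 53 of the 22468 genes in the deposited table. They were taken by symbol: every entry whose name starts with Ccl, Ccr, Cxcl, Cxcr, Cx3cl, Cx3cr, Xcl, Xcr or Ackr followed by a digit, with Cxcl12 left out. Ccr2, Cxcr1 and Ackr1 were not analysed here. RNA came from bone of female Sprague-Dawley rats, sequenced as 15 poly(A)-selected libraries, 3 in each of 5 groups. Blank rats had no treatment and were not ovariectomized. Model rats were ovariectomized, carry the condition label osteoporosis and received nothing further that the labels name. SYT, YJT and YJZYT rats were ovariectomized too, and what else they received is known only by these condition labels. Zhuanggu Zhitong Capsule, a herbal medicine, is the subject of the series, but no label ties it to a group. The labels name neither an age nor a sham operation, so effects of surgery and of ovary loss cannot be told apart. Libraries are named by group and replicate, so that SYT3 is replicate 3 of SYT.

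Chemokines are small secreted proteins that guide cells along gradients, and they are sorted into CC, CXC, CX3C and XC types by the spacing of their first cysteines. Their receptors are G protein-coupled receptors of the leukocyte surface, while the atypical receptors (Ackr) bind chemokines without signalling through G proteins and remove or transport them. In bone and its marrow these genes are known for holding blood precursors in place, for releasing neutrophils and monocytes into the blood, and for drawing osteoclast precursors to bone surfaces.

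Total counts ran from 64472700 to 74255667 per library, and the 53 genes together took from 0.0460% (SYT3) to 0.0867% (Model2) of them. Bone cell markers were present but uneven: 9 osteoblast and osteocyte markers summed to 1143 FPKM in YJT3 and 1618 in YJZYT3, against 4812 to 21549 in the other libraries. FPKM is the authors' level per transcript length and library size, so it can be compared between genes. Neutrophil markers (12 genes) summed to 3455 FPKM in SYT3 and to 9649 to 49886 elsewhere, and 9 skeletal muscle markers to 2927 to 4499 in Blank, 184 to 553 in Model, 378 to 2376 in SYT, 1820 to 2038 in YJT and 24.2 to 499 in YJZYT. The samples therefore hold marrow and, to a varying degree, muscle beside bone. In such bulk tissue, fewer cells of a type and less RNA per cell cannot be told apart.

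A few genes carried most of the chemokine signal. Cxcr4, the receptor that retains blood precursors in the marrow, led with a mean of 124 FPKM, followed by the myeloid CC chemokine Ccl6 (84.7 FPKM) and by Cxcl14, a chemokine of epithelial and stromal cells (49.6 FPKM). These 3 made up 69.4% of the summed mean FPKM of the 53 genes. With Cxcr2 (20.8 FPKM) and Ccr1 (18.7 FPKM), receptors of neutrophils and of myeloid cells, 5 genes reached a mean of 10 FPKM, 21 reached 1 FPKM and 10 stayed under 0.1 FPKM. A count was found in every library for 36 of the 53. Ccl19, Ccl26, Ccr8, Ccl25, Ccl1, Ccl20 and Ccl28 had too few counts to be tested (at most 18 in any library), which left 46 tested genes.

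**Figure D1:**
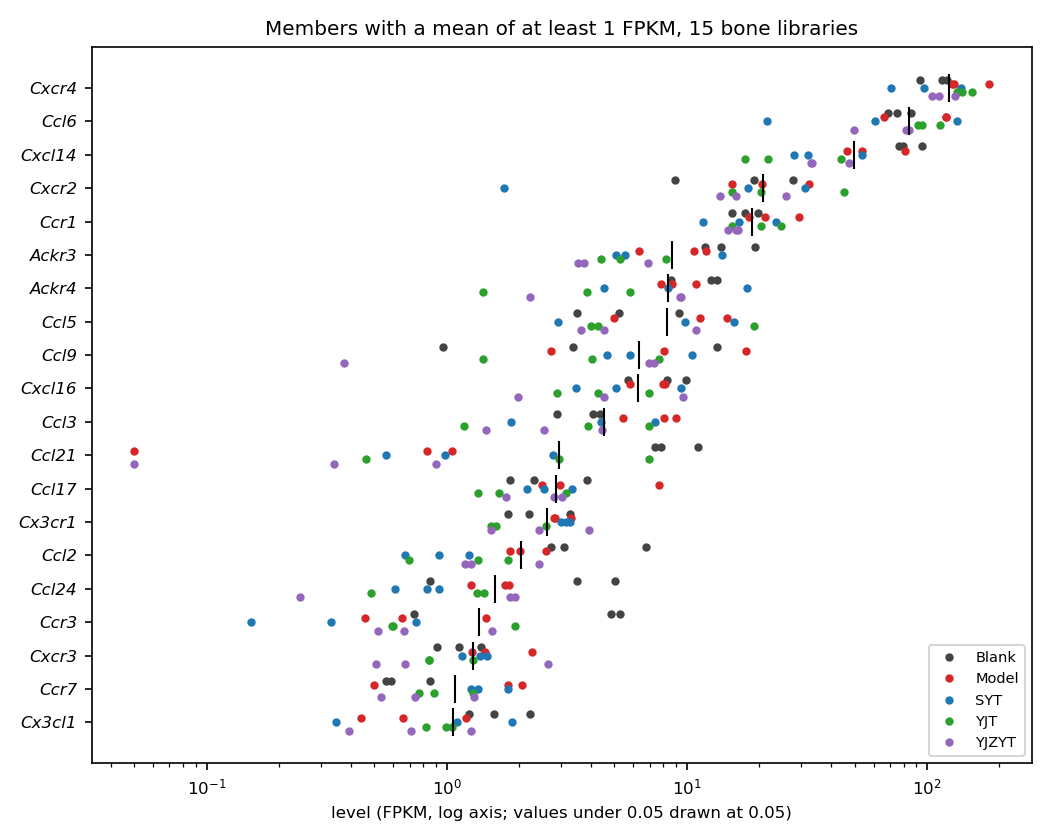
Level of 20 of the 21 chemokine and receptor genes with a mean of at least 1 FPKM in the 15 libraries (log axis, 1 point a library, coloured by group; the black tick is the mean of the 15). Cxcr4 and Ccl6 lie highest, and the 3 Blank points of Ccl21 stand to the right of the others in their row.

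Most of these genes lie near another member in the genome. By the authors' gene coordinates, for which no source used here gives a build, 34 of the 53 fell into 9 groups of neighbours less than 200000 bases apart, and 19 stood alone. Levels differed widely within such a group. On chromosome 10, from 70739800 to 70886355, Ccl5, Ccl9, Ccl6, Ccl3 and Ccl4 lie in that order with means of 8.26, 6.33, 84.7, 4.52 and 0.998 FPKM.

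No chemokine or receptor gene passed the test between groups. The edgeR quasi-likelihood test was run on all 17657 genes with enough counts, with p-values adjusted by the Benjamini-Hochberg method and a threshold of 0.05. Since no label ties the libraries of a group to separate animals, the p-values reflect the spread among these libraries alone, part of which may be technical. In Model against Blank, which asks what differs in bone after ovariectomy, 0 of 46 passed (background 0.0227% of all tested genes), with 26 genes on the higher and 20 on the lower side. An unadjusted p under 0.05 was reached by 5 of the 46 (background 8.19%): Ccr6 and Ccr7 with higher values in Model (background 3.96%), and Ccl21, Ccr3 and Cxcl3 with lower ones (4.23%). The median log2 fold change was 0.30 over the 46 and 0.02 over all tested genes, but the former was -0.12 without Model1, 0.03 without Blank1, 0.08 without Blank2, 0.16 without Blank3, 0.12 without Model2 and 0.19 without Model3.

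The other 3 comparisons set SYT, YJT and YJZYT against Model, all ovariectomized, and they share the Model libraries. In SYT against Model 0 of 46 passed (background 0%), 1 had an unadjusted p under 0.05 (background 3.16%), Cxcl3 with higher values (1.98%), and the median log2 fold change was -0.05 (all tested genes 0.02). The SYT median was 0.13 without Model1, 0.09 without SYT2, 0.14 without SYT3, -0.29 without SYT1, -0.13 without Model3 and -0.02 without Model2. In YJT against Model 0 of 46 passed (background 0%), 2 had an unadjusted p under 0.05 (background 6.58%), Cxcl3 with higher (4.12%) and Cxcl14 with lower values (2.46%). The YJT median was -0.37 (all tested genes -0.02), -0.12 without Model1 and -0.23 without YJT3. In YJZYT against Model 0 of 46 passed (background 0%), 3 had an unadjusted p under 0.05 (background 7.29%), Cxcl3 with higher (4.44%) and Ackr3 and Ackr2 with lower values (2.85%). The YJZYT median was -0.26 (all tested genes -0.07), -0.13 without Model1 and -0.43 without YJZYT1. A test of any difference among the 5 groups passed 0 of 46 with edgeR (background 0.0227%), while 8 had an unadjusted p under 0.05 (background 7.71%). DESeq2 called 0 members in each of the 4 comparisons. Over the 5 groups it called 616 of all genes, and 2 of the 47 members with an adjusted p were among them. These were Ccl2 (DESeq2 adjusted p = 0.0198) and Cxcl14 (DESeq2 adjusted p = 0.0246).

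Some genes had groups that did not overlap. In CPM, counts scaled to library size with TMM factors, all 3 Model libraries lay above all 3 Blank libraries for Ccl3, Ccr10 and Ccr6 (background 7.69%), and below them for Ccl21, Ccl2, Cx3cl1, Ackr2 and Cxcl3 (background 7.99%). SYT lay above Model for Cx3cr1, Cxcr5, Ccr9 and Xcr1 (background 3.24%) and below it for Ccl2 and Ccl24 (2.65%). YJT lay above Model for Ackr2 and Cxcl3 (6.83%) and below it for Ackr4, Cx3cr1, Cxcl10 and Ccr9 (4.92%). YJZYT lay above Model for Ccl12 (7.35%) and below it for Ccr1 and Ccl3 (5.57%). In shares of the 46, these were 6.52% and 10.9% for Model against Blank, 8.70% and 4.35% for SYT, 4.35% and 8.70% for YJT and 2.17% and 4.35% for YJZYT, higher and lower in turn. Separations between other sets of libraries are named below for single genes. How many of all tested genes show them was not counted.

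**Figure D2:**
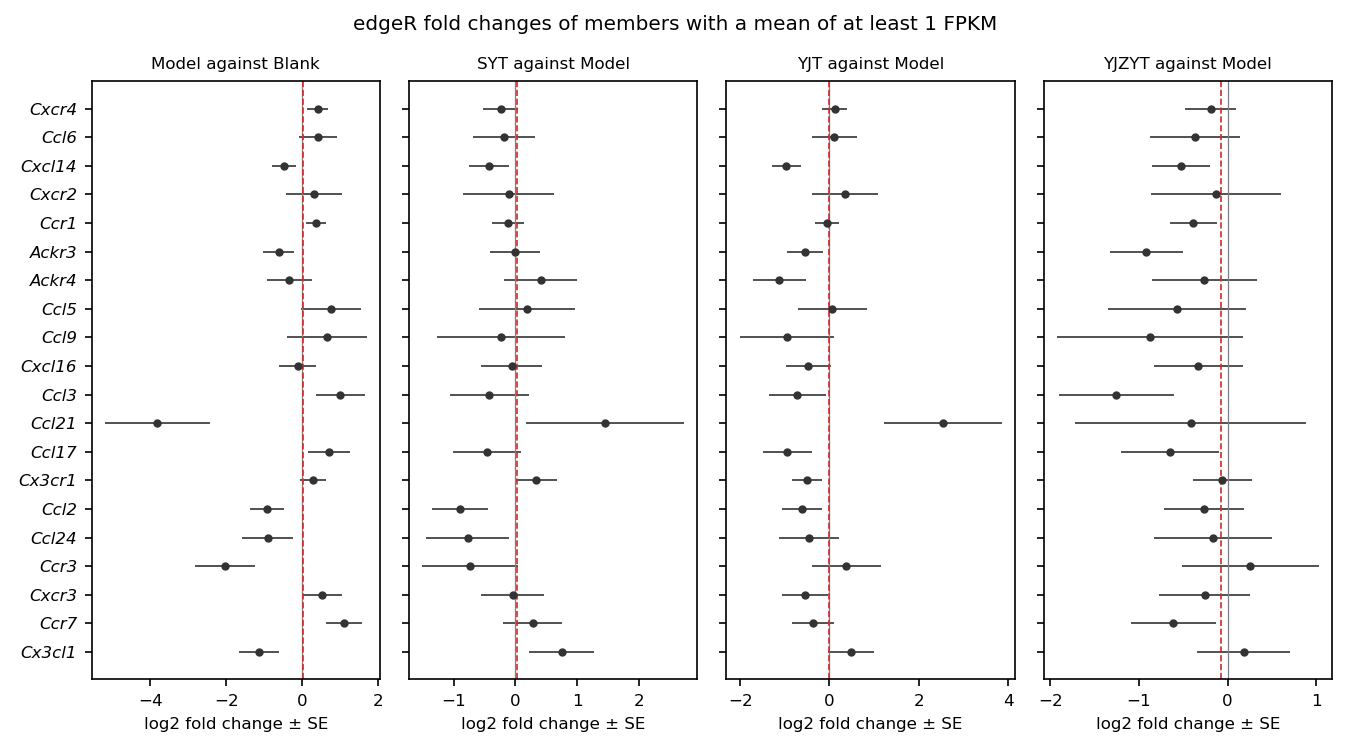
edgeR log2 fold changes with their standard errors for 20 of the 21 genes with a mean of at least 1 FPKM, in 4 comparisons (each panel has its own axis; the dashed line is the median of all tested genes). The value for Ccl21 in Model against Blank, -3.82, lies farthest from 0 and also has the widest error of that panel.

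The CXC chemokines with an ELR sequence draw neutrophils through Cxcr2. Their genes Cxcl2, Cxcl1, Cxcl3 and Cxcl6 lie together on chromosome 14 from 18731378 to 18862407, and all were low, with means from 0.0508 (Cxcl3) to 0.933 FPKM (Cxcl2). The 250 bases before the RefSeq gene start are shown for 3 of them because they are neighbours that carry 1 like stretch, the NF-kappaB consensus (capitals). In GRCr8 they are chr14:17479322-17479571 for Cxcl1, chr14:17467256-17467505 for Cxcl2 and chr14:17596418-17596667 for Cxcl6, all on the minus strand and read 5′ to 3′.
Cxcl1: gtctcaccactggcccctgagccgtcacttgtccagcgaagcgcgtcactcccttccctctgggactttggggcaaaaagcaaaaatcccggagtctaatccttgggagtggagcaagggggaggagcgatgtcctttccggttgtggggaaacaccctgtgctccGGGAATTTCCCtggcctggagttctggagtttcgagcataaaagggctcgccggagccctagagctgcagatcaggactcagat
Cxcl2: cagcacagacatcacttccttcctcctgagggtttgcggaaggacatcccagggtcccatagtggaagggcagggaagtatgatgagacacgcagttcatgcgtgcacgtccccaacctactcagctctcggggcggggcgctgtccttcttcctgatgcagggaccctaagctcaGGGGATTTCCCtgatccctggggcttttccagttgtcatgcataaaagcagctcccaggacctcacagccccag
Cxcl6: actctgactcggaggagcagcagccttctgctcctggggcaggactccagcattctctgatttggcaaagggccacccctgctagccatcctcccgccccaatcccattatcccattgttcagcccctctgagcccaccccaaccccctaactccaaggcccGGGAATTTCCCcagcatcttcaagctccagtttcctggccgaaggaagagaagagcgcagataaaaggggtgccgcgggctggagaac
In each of the 3 the capitals hold 2 overlapping matches, 1 base apart, that start 84 and 83 bases (Cxcl1), 74 and 73 bases (Cxcl2) and 88 and 87 bases (Cxcl6) before the gene start. The consensus was searched on both strands in 250 bases for the 40 genes found in the RefSeq table. It was present in 9 of them (22.5%), against 6.33% of 33469 promoters of the same length. A match is a run of letters and not a shown binding site.

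The library values of these ligands did not run in parallel. Cxcl2 was at 0.883, 0.852 and 0.510 FPKM in Blank, 2.67, 0.610 and 1.57 in Model, 1.33, 0.538 and 0.409 in SYT, 0.857, 0.683 and 0.698 in YJT and 0.473, 0.990 and 0.926 in YJZYT. Model1 was highest and SYT3 lowest, and the groups overlapped. Cxcl1 was highest in Blank3 (1.37 FPKM) and lowest in YJZYT1 (0.144 FPKM), and Cxcl6 highest in YJZYT3 (1.36 FPKM) and lowest in SYT3 (0.157 FPKM). Cxcl3 rested on few counts: 9, 8 and 6 in Blank, 0 in all 3 Model libraries, 9, 9 and 0 in SYT, 14, 6 and 14 in YJT and 0, 0 and 16 in YJZYT. Model was set to a floor of 3 counts over the group. Against it the pooled Cxcl3 level was 7.57-fold higher in Blank, 6.95-fold in SYT and 12.1-fold in YJT. In YJZYT it was 5.77-fold higher, where YJZYT3 alone gave the counts. These ratios leave out the spread between libraries, so they are no lower bounds. The edgeR adjusted p-values of Cxcl3 were 0.519 for Model against Blank and 1, 0.746 and 0.649 for SYT, YJT and YJZYT against Model.

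Cxcr2, which neutrophils need to leave the marrow, varied widely between libraries of the same group. It was at 27.7, 8.90 and 19.0 FPKM in Blank, 32.4, 20.5 and 15.5 in Model, 31.1, 18.0 and 1.72 in SYT, 15.4, 20.4 and 45.2 in YJT and 13.8, 16.1 and 26.0 in YJZYT. SYT3 stood lowest and YJT3 highest, 26.2 times apart. Csf3r, the receptor for the neutrophil growth factor G-CSF, was also lowest in SYT3 (3.89 FPKM) and highest in YJT3 (40.2 FPKM). Of the other neutrophil markers, Lcn2, Elane and Cebpe were highest in YJT3 too. S100a8, S100a9, Camp, Ngp and Mmp8 were highest in SYT1, Mpo in Blank1 and Prtn3 in Blank2. The 12 neutrophil markers, of which Ltf was at most 0.0477 FPKM and at 0 in 8 libraries, summed to 13546 to 20701 FPKM in Blank, 9649 to 35580 in Model, 3455 to 49886 in SYT, 16148 to 28650 in YJT and 15247 to 32230 in YJZYT. Of the 5 highest and the 5 lowest libraries of Cxcr2, 5 were shared with the neutrophil sum. With the monocyte and macrophage sum 8 were shared, with the eosinophil sum 7 and with the megakaryocyte sum 6. The part of these cells in the values of Cxcr2 was not tested.

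Cxcl9, Cxcl10 and Cxcl11 are induced by interferons and draw activated T and NK cells through Cxcr3. They lie on chromosome 14 from 17195014 to 17234712. The 250 bases before the gene start are shown for Cxcl10 (chr14:15988816-15989065) and Cxcl11 (chr14:15973478-15973727) in GRCr8, plus strand, because both genes were highest in the same library. Capitals mark the NF-kappaB consensus and, in the first run of capitals of Cxcl10, the interferon response letters (GAAA, any 2 bases, GAAA).
Cxcl10: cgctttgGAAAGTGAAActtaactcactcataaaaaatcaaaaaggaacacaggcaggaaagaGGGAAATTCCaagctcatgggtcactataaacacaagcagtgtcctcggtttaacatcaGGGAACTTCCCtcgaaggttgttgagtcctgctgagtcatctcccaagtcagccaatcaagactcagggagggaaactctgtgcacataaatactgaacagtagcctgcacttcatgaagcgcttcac
Cxcl11: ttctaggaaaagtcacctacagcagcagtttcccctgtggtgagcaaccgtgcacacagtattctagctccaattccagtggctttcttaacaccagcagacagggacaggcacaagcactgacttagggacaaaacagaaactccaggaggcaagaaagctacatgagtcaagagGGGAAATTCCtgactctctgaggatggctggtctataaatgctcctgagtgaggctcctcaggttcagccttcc
The interferon response letters start 243 bases before the start of Cxcl10, and they were found in 2 of the 40 genes (5%) against 3.41% of all promoters, on either strand. The NF-kappaB matches start 187, 128 and 127 bases before the start of Cxcl10, the last 2 overlapping, and 74 bases before that of Cxcl11. In the same window of Cxcl9 neither was found.

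Cxcl10 stood out in 1 library. It was at 0.968, 0.431 and 1.77 FPKM in Blank, 0.877, 0.471 and 0.540 in Model, 0.409, 0.422 and 0.318 in SYT, 0.198, 0.282 and 0.356 in YJT and 3.61, 0.738 and 0.287 in YJZYT. YJZYT1, at 3.61 FPKM, was the highest, and the other YJZYT libraries lay within the range of the other groups. In TMM-scaled counts Cxcl10 was at 2.02 ± 2.31 CPM in YJZYT and 0.764 ± 0.240 in Model (SD, n = 3; log2 fold change 1.40, SE 0.73, edgeR adjusted p = 0.699), and -0.13 without YJZYT1. Cxcl11 (0.403 FPKM) and Cxcr3 (2.65 FPKM) were highest in YJZYT1 too. So was Irf1, an interferon-induced regulator, at 24.3 FPKM against 13.1 to 19.7 in the other 14, and Ifng, the gene of interferon gamma, was listed at 0.289 FPKM in YJZYT1 and at 0 in the other 14. Cxcl9 did not follow: it was at 0.966 FPKM in YJZYT1, with its highest value in Blank3 (2.37 FPKM). These genes were picked for their values in YJZYT1, so they are a description of that library. Over all 8 tested genes of the interferon gamma list, 6 lay higher and 2 lower in YJZYT than in Model, and 0 passed.

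**Figure D3:**
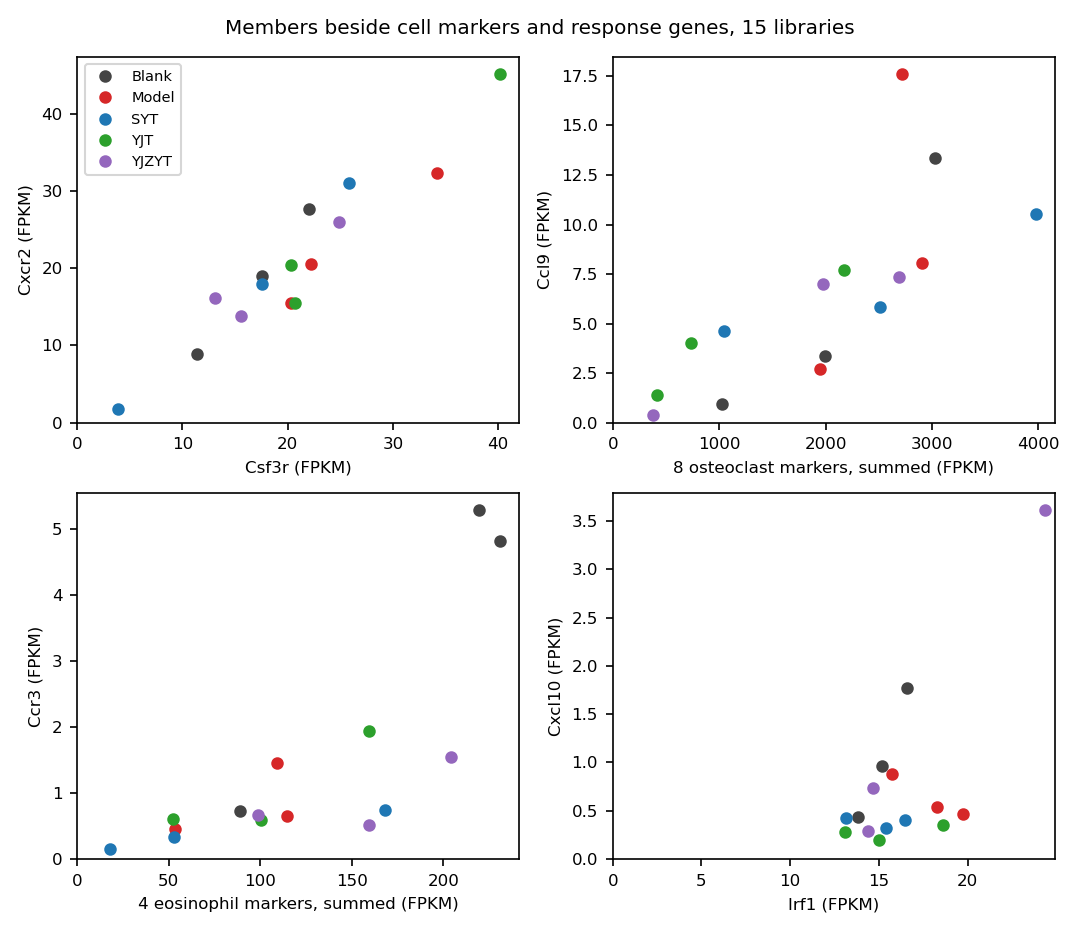
Level of 4 chemokine system genes (vertical axes, FPKM) against a marker gene or a sum of markers (horizontal axes, FPKM), 1 point a library, coloured by group. Cxcr2 follows Csf3r from SYT3 (3.89 FPKM) to YJT3 (40.2 FPKM), the Ccr3 values of Blank1 and Blank3 stand above all others, and a single YJZYT point holds the highest Cxcl10 and Irf1. Csf3r is 1 of 12 neutrophil markers, and their sum was highest in SYT1.

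Cxcr4 and Cxcl14 were the most abundant genes among the remaining CXC members. Cxcr4 was at 122, 116 and 94.0 FPKM in Blank, 127, 182 and 129.5 in Model, 139, 97.2 and 70.7 in SYT, 134, 154 and 141 in YJT and 105, 113 and 131 in YJZYT. Its range of 2.58 times between the lowest library (SYT3) and the highest (Model2) was among the narrowest. All 3 Model and all 3 YJT libraries lay above all 3 Blank libraries in FPKM, while in CPM the lowest Model library (231) lay below the highest Blank library (233). Cxcl14 was at 159.7, 141 and 131 CPM in Blank, 136, 83.6 and 90.9 in Model, 64.2, 61.6 and 105 in SYT, 84.0, 37.4 and 37.3 in YJT and 60.7, 89.0 and 66.6 in YJZYT. All 3 Blank libraries lay above all 9 SYT, YJT and YJZYT libraries, and Model1 lay within the Blank range. Cxcl14 had the smallest p of the 46 genes over the 5 groups (edgeR adjusted p = 0.411). For YJT against Model it stood at 52.9 ± 26.9 against 104 ± 28.5 CPM (SD, n = 3; log2 fold change -0.97, SE 0.33, edgeR adjusted p = 0.746), with YJT1 at the level of Model2. The log2 fold change was -1.47 without YJT1 and -0.66 without Model1. Among the 5 highest and the 5 lowest libraries of Cxcl14, 7 were shared with the sum of the endothelial markers. With the marrow stroma and fat and the osteoblast and osteocyte sums 6 each were shared. With the sum of 4 lymphatic vessel markers, chosen after the values were seen, 8 were shared. The part of these cells in the values of Cxcl14 was not tested.

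Cxcl16, a membrane-bound chemokine that also takes up oxidized lipids, was at 5.68, 8.31 and 9.94 FPKM in Blank, 5.78, 7.99 and 8.13 in Model, 3.45, 5.07 and 9.50 in SYT, 6.94, 4.27 and 2.88 in YJT and 9.65, 4.53 and 1.99 in YJZYT. It was lowest in YJZYT3 and YJT3, the libraries with the least osteoblast and osteocyte RNA. The part of these cells in the values of Cxcl16 was not tested. Cxcr6, its receptor on T cells, had a mean of 0.424 FPKM, and Cxcl17, a chemokine of mucosal surfaces, 0.665 FPKM.

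The CC chemokines of monocytes were led by Ccl6, a rodent chemokine of myeloid cells. It was at 86.4, 75.4 and 69.0 FPKM in Blank, 121, 120.4 and 66.1 in Model, 134, 61.0 and 21.6 in SYT, 91.6, 95.5 and 114 in YJT and 49.9, 81.6 and 84.2 in YJZYT. SYT1 was highest and SYT3 lowest, as for the sum of the 12 neutrophil markers, of which only some were highest in SYT1. Among the 5 highest and the 5 lowest libraries of Ccl6, 8 were shared with that sum and 7 with the monocyte and macrophage sum. The part of these cells in the values of Ccl6 was not tested. Ccr1, a receptor of CC chemokines such as Ccl3 and Ccl5 on myeloid cells and osteoclast precursors, was at 15.5, 19.8 and 17.5 FPKM in Blank, 29.3, 18.2 and 21.3 in Model, 23.5, 16.5 and 11.7 in SYT, 20.3, 15.4 and 24.8 in YJT and 14.9, 16.1 and 16.4 in YJZYT. All 3 YJZYT libraries lay below all 3 Model libraries in CPM, by a small margin (37.5 in YJZYT3 and 37.6 in Model2).

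Ccl9, which osteoclasts make and which acts through Ccr1, had the widest range of the 10 most abundant genes. It was at 0.962, 13.4 and 3.37 FPKM in Blank, 2.73, 17.6 and 8.07 in Model, 4.64, 5.82 and 10.6 in SYT, 7.69, 4.04 and 1.42 in YJT and 7.34, 6.99 and 0.372 in YJZYT. The highest library was 47.2 times the lowest, and Blank1 and YJZYT3 held the lowest values. The 8 osteoclast markers, none at 0, were also low in YJZYT3 (383 FPKM) and YJT3 (419 FPKM), and they summed to 1030 to 3033 FPKM in Blank, 1944 to 2906 in Model, 1049 to 3976 in SYT, 419 to 2171 in YJT and 383 to 2695 in YJZYT. Of the 5 libraries highest and the 5 lowest in Ccl9, 7 of the 10 were also in the highest or lowest 5 of the osteoclast sum, in the same direction, and likewise 7 of 10 for the osteoblast and osteocyte sum. The part of these cells in the values of Ccl9 was not tested.

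Ccl3 and Ccl5 are ligands of Ccr1, released by activated myeloid and T cells. Ccl3 was at 4.08, 2.88 and 4.36 FPKM in Blank, 8.98, 8.07 and 5.42 in Model, 7.37, 4.40 and 1.84 in SYT, 6.94, 3.88 and 1.18 in YJT and 2.54, 1.45 and 4.44 in YJZYT. The Model libraries lay above all Blank libraries in CPM, and the YJZYT libraries below all Model libraries. Ccl5 was at 5.20, 9.30 and 3.48 FPKM in Blank, 14.7, 11.3 and 4.98 in Model, 15.8, 2.92 and 9.82 in SYT, 4.26, 19.1 and 4.0 in YJT and 10.9, 3.62 and 4.54 in YJZYT. Its highest values, in YJT2, SYT1 and Model1, came from 3 different groups. Ccl4, a related chemokine of activated myeloid and T cells, had a mean of 0.998 FPKM.

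Ccl2, the main attractant of monocytes, had its highest values in Blank. It was at 2.69, 2.60 and 5.79 CPM in Blank, 1.76, 2.43 and 1.62 in Model, 1.48, 0.683 and 0.945 in SYT, 1.78, 0.783 and 1.22 in YJT and 1.14, 2.35 and 1.32 in YJZYT. All 3 Blank libraries lay above all 12 libraries of ovariectomized rats, with Blank3 far above the others. The share of all tested genes with such a separation was not counted. The means were 1.94 ± 0.433 CPM in Model and 3.69 ± 1.82 in Blank (SD, n = 3; log2 fold change -0.93, SE 0.45, edgeR adjusted p = 0.645), and the log2 fold change was -0.50 without Blank3. Over the 5 groups the edgeR adjusted p of Ccl2 was 0.445 and that of DESeq2 0.0198, in a test where DESeq2 called 616 genes. The related Ccl7 and Ccl12 were low, with means of 0.357 and 0.269 FPKM, and Ccl7 was also highest in Blank3 (1.01 FPKM). As a group, the 10 CC genes of monocytes had 8 members higher and 2 lower in Model than in Blank (median 0.54). In SYT, YJT and YJZYT 7, 7 and 8 were lower than in Model (medians -0.21, -0.37 and -0.38), with 0 past the threshold in each comparison. Of all tested genes, 51.7% were higher in Model than in Blank, and 53.2%, 48.2% and 42.3% higher in SYT, YJT and YJZYT than in Model. All 4 comparisons share the Model libraries, so their directions are not independent.

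Ccr3, the eotaxin receptor of eosinophils, was high in a pair of Blank libraries. It was at 16.3, 2.72 and 17.6 CPM in Blank, 4.93, 2.39 and 1.57 in Model, 3.45, 1.29 and 0.620 in SYT, 2.31, 2.56 and 6.69 in YJT and 2.47, 1.97 and 6.21 in YJZYT. Blank1 and Blank3 stood above all other libraries, while Blank2 lay within the Model range. The means were 2.96 ± 1.75 CPM in Model and 12.2 ± 8.24 in Blank (SD, n = 3; log2 fold change -2.04, SE 0.80, edgeR adjusted p = 0.504). Of the eosinophil markers, Epx, the eosinophil peroxidase, was at 12.1 and 11.5 FPKM in Blank1 and Blank3 and at 0.775 to 8.06 FPKM elsewhere. The 4 eosinophil markers, chosen after the values of Ccr3 were seen and none at 0, summed to 88.9 to 231 FPKM in Blank, 53.2 to 115 in Model, 18.0 to 168 in SYT, 52.5 to 159 in YJT and 98.8 to 204 in YJZYT. Most of that sum was Prg2, a granule protein gene, which at 192 FPKM in YJZYT3 and 161 in SYT1 came near Blank1 (208) and Blank3 (198), where Ccr3 was higher. Of the 5 highest and the 5 lowest libraries of Ccr3, 6 of 10 were shared with the eosinophil sum, 7 with the megakaryocyte sum, and 6 each with the T and NK cell, the monocyte and macrophage and the lymphatic sums. The part of these cells in the result was not tested.

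The eotaxins, which are ligands of Ccr3, were low. Ccl24, eotaxin-2, had a mean of 1.59 FPKM and its highest values in the same libraries as Ccr3, Blank3 (5.02 FPKM) and Blank1 (3.51 FPKM). Ccl11, eotaxin, had a mean of 0.190 FPKM and Ccl26 was not tested. Ccl17, a ligand of Ccr4 on T helper cells, had a mean of 2.86 FPKM with 7.65 FPKM in Model2. Ccr4 and Ccl22 had means of 0.0380 and 0.106 FPKM.

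Ccr6, the receptor of Ccl20 on B cells and on some T cells, had low and tight values in Blank. It was at 0.524, 0.477 and 0.397 CPM in Blank, 0.969, 0.618 and 1.26 in Model, 1.81, 1.43 and 1.08 in SYT, 0.697, 1.02 and 0.868 in YJT and 1.11, 0.633 and 0.466 in YJZYT. All 3 libraries of Model, of SYT and of YJT lay above Blank, as did YJZYT1 and YJZYT2. The means were 0.948 ± 0.320 CPM in Model and 0.466 ± 0.0641 in Blank (SD, n = 3; log2 fold change 1.02, SE 0.43, edgeR adjusted p = 0.543). Ccr7, which guides T cells, B cells and dendritic cells to lymph nodes, was at 2.19 ± 1.22 CPM in Model and 1.02 ± 0.224 in Blank (SD, n = 3; log2 fold change 1.10, SE 0.48, edgeR adjusted p = 0.573). Model2, at 0.801 CPM, lay below all 3 Blank libraries, and the log2 fold change was 0.73 without Model3. The 11 B cell markers, none at 0, summed to 368 to 498 FPKM in Blank and 347 to 848 in Model, and the 13 T and NK cell markers to 102 to 117 and 101 to 142. Their part in these values was not tested.

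Ccl21, the ligand of Ccr7 made by lymphatic vessels and lymphoid stroma, had the largest difference between Model and Blank among the genes with a mean of at least 1 FPKM. It was at 9.72, 7.48 and 6.35 CPM in Blank, 0.730, 0 and 0.932 in Model, 1.17, 0.559 and 2.82 in SYT, 2.92, 0.516 and 6.21 in YJT and 0.327, 0 and 0.932 in YJZYT. All 3 Blank libraries lay above every other library. YJT3 came closest, at 6.21 CPM against 6.35 in Blank3. The means were 0.554 ± 0.491 CPM in Model and 7.85 ± 1.72 in Blank (SD, n = 3; log2 fold change -3.82, SE 1.39, edgeR adjusted p = 0.460). Its smallest adjusted p under any alternative was 0.0568, from limma on log2(FPKM + 1), and DESeq2 gave an adjusted p of 0.108. The gene lies on chromosome 5 from 58197680 to 58198782 in the deposited coordinates, near Ccl19, the other ligand of Ccr7, which was not tested.

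Marker sums of several cell types are set beside Ccl21 here. The 8 marrow stroma and fat markers, none at 0, summed to 358 to 529 FPKM in Blank and to at most 302 in every other library. The 10 endothelial markers, none at 0, summed to 86.7 to 107 FPKM in Blank, 61.7 to 73.9 in Model, 40.6 to 102 in SYT, 43.9 to 83.3 in YJT and 36.0 to 53.9 in YJZYT. Of 4 lymphatic vessel markers, chosen after the values were seen, Prox1, the lymphatic master regulator, was near 0 throughout (at most 0.0891 FPKM). The sum of the 4 was 31.7 to 47.0 FPKM in Blank, 17.3 to 49.6 in Model, 9.68 to 28.7 in SYT, 15.4 to 21.7 in YJT and 15.1 to 19.4 in YJZYT, with Model1 the highest library. Most of this sum came from Mmrn1 and Pdpn (36.4 and 8.89 FPKM of 49.6 in Model1), which other cells also express. Mmrn1 was highest in Model1 and Blank1, as was the megakaryocyte gene Itga2b, and Pdpn in SYT3 (24.3 FPKM), as were the osteoblast and osteocyte markers, so the sum is no clean measure of lymphatic vessels. The muscle sum was at least 2927 FPKM in every Blank library and at most 2376 in all others. Their part in the values of Ccl21 was not tested. Of the other lymphoid homing genes, Cxcr5, the B cell follicle receptor, had a mean of 0.744 FPKM, and its ligand Cxcl13 of 0.162 FPKM.

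Among the atypical receptors, Ackr3, which takes up Cxcl12 and Cxcl11, and Ackr4, which takes up Ccl19, Ccl21 and Ccl25, were the more abundant. Ackr3 was at 23.9, 30.6 and 38.1 CPM in Blank, 12.8, 23.3 and 24.4 in Model, 14.0, 12.8 and 33.2 in SYT, 18.7, 13.6 and 9.07 in YJT and 15.2, 7.90 and 9.01 in YJZYT. Blank had the highest mean (30.9 CPM) and YJZYT the lowest, and their libraries did not overlap. The means were 10.7 ± 3.91 CPM in YJZYT and 20.1 ± 6.42 in Model (SD, n = 3; log2 fold change -0.91, SE 0.41, edgeR adjusted p = 0.675), and Model1 lay within the YJZYT range. Ackr4 was at 8.60, 13.4 and 12.7 FPKM in Blank, 7.81, 8.64 and 10.9 in Model, 8.32, 4.53 and 17.8 in SYT, 5.82, 3.84 and 1.41 in YJT and 9.48, 9.36 and 2.22 in YJZYT. SYT3 was highest, and YJT3 and YJZYT3, both poor in osteoblast RNA, were lowest.

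Ackr2, the scavenger of inflammatory CC chemokines found on lymphatic vessels, rested on at most 43 counts a library. Its counts were 43, 27 and 26 in Blank, 0, 0 and 14 in Model, 0, 33 and 19 in SYT, 22, 19 and 26 in YJT and 0 in all 3 YJZYT libraries. Blank and YJT lay above every Model and YJZYT library. The pooled Model level was 4.31-fold above a floor of 3 counts over the YJZYT group, with all counts from Model3 (edgeR adjusted p = 0.681). This ratio leaves out the spread between libraries and is no lower bound. All 3 tested atypical receptors were lower in Model than in Blank and lower in YJZYT than in Model (medians -0.62 and -0.91), with 0 past the threshold. Of the 10 endothelial markers, 10 were lower in Model than in Blank and 9 lower in YJZYT than in Model, also with 0 past the threshold. In the same comparisons 9 and 8 of 9 muscle markers were lower, and 7 and 6 of 8 marrow stroma and fat markers. Of 9 osteoblast and osteocyte markers, 7 were higher in Model than in Blank and 9 lower in YJZYT than in Model. Among all tested genes, 51.7% were higher in Model than in Blank and 42.3% higher in YJZYT than in Model. Of the 5 highest and the 5 lowest libraries of Ackr3, 9 of 10 were shared with the endothelial sum and 8 with the osteoblast and osteocyte sum. With the osteoclast, muscle and lymphatic sums 7 each were shared. For Ackr4, 6 were shared with the endothelial sum and 7 each with the osteoblast and osteocyte and the osteoclast sums. The part of these cells in the values of the atypical receptors was not tested.

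**Figure D4:**
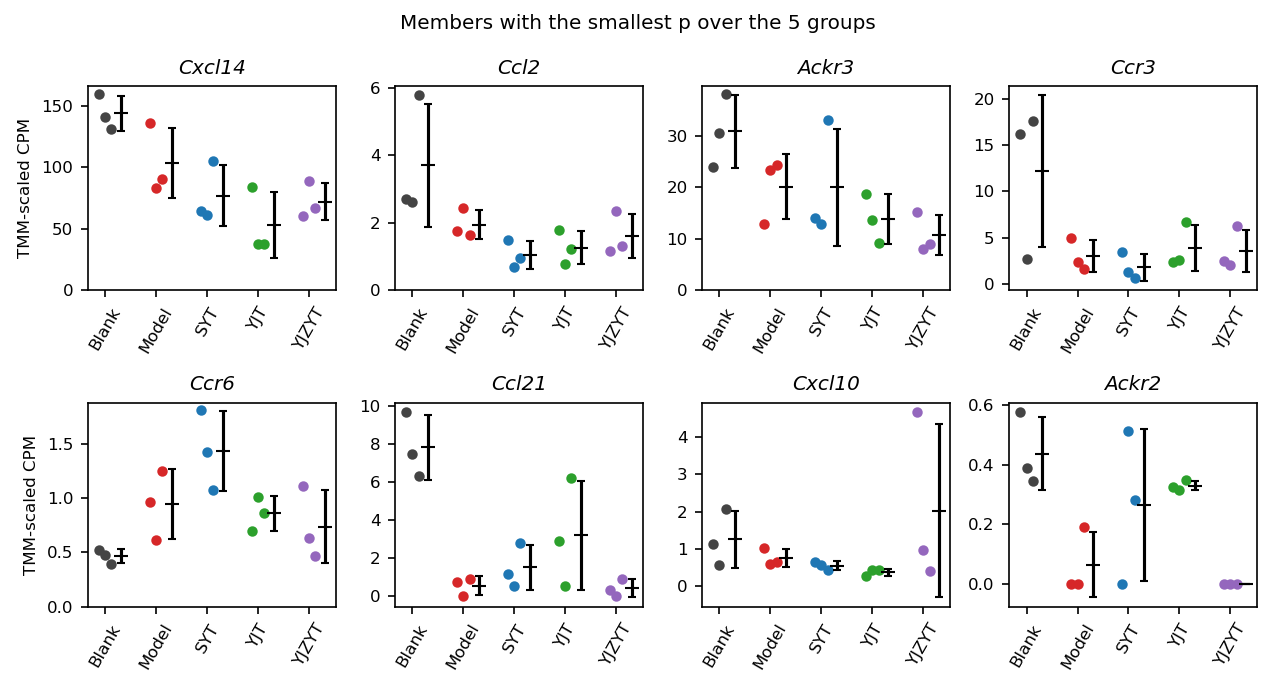
TMM-scaled CPM of the 8 genes with the smallest p over the 5 groups, 1 point a library; the bar beside the points is the mean with its SD (n = 3). Blank stands highest for Cxcl14, Ccl2 and Ccl21 and lowest for Ccr6, and 1 YJZYT library holds the high Cxcl10.

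Cx3cr1, the fractalkine receptor of monocytes and macrophages, was one of the steadiest genes. It was at 1.80, 3.25 and 2.21 FPKM in Blank, 2.80, 2.83 and 3.31 in Model, 3.27, 3.13 and 3.01 in SYT, 1.53, 1.61 and 2.59 in YJT and 3.92, 2.42 and 1.53 in YJZYT. The SYT libraries lay above and the YJT libraries below all Model libraries in CPM. Its ligand Cx3cl1, made by endothelial cells, had a mean of 1.06 FPKM and was higher in every Blank library than in every Model library in CPM. Xcl1, a chemokine of T and NK cells, had a mean of 0.694 FPKM with its highest values in SYT1 (1.96 FPKM) and Model2 (1.75 FPKM). Xcr1, its receptor on cross-presenting dendritic cells, had a mean of 0.130 FPKM and was highest in YJZYT1 (0.405 FPKM).

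Single libraries held many of the extremes. Of the 36 genes with a count in every library, 12 had their highest FPKM in Blank3 and 6 in YJZYT1, while 9 had their lowest in SYT3 and 7 in YJZYT3. The same count was not made over all genes. It therefore cannot be told whether these libraries are extreme for these genes or for genes at large. In FPKM, Blank3 was the top library for Ackr3, Ccl2, Ccl24, Ccr3, Cx3cl1, Cxcl9 and Cxcl16, which are genes of different cell types. In CPM, Cxcl16 was instead highest in SYT3 (19.7, against 17.4 in Blank3). Cx3cl1 was at 7.14 CPM in both SYT3 and Blank3, and the others listed were highest in Blank3 in CPM too. SYT3 was the bottom library for the most abundant receptors, Cxcr4, Cxcr2 and Ccr1, and for Ccl6.

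**Figure D5:**
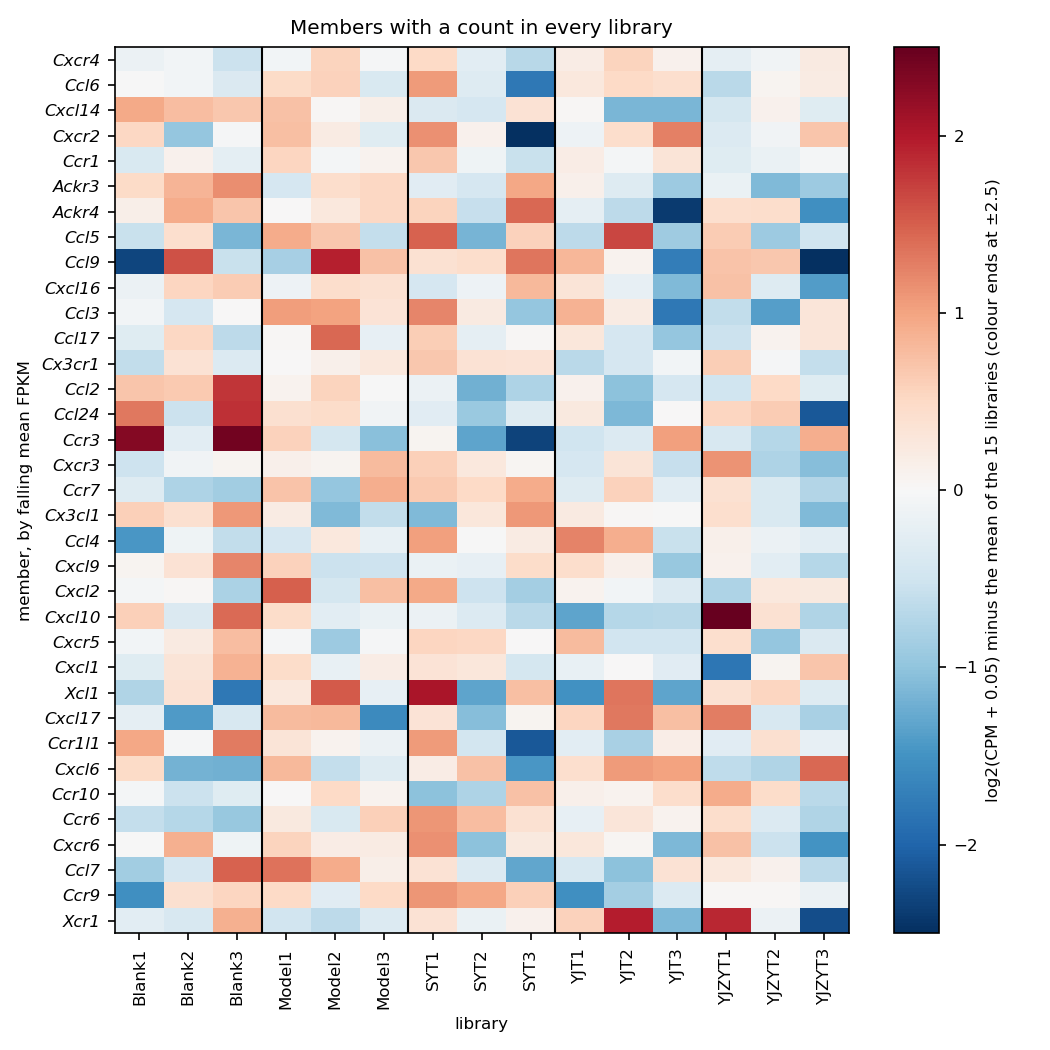
Deviation of log2(CPM + 0.05) from the mean of the 15 libraries for 35 of the 36 genes with a count in every library (columns are libraries, black lines separate the groups, red is above and blue below the mean). SYT3 is low for Ccl6, Cxcr2 and Ccr3, YJT3 and YJZYT3 are low for Ackr4 and Ccl9, and YJZYT1 is high for Cxcl10.

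The pathway genes outside the family did not pass either. Of 53 listed genes of chemokine-like proteins, signalling, interferon gamma response and NF-kappaB response, 50 were tested, and 0 passed in any of the 4 comparisons. They had a median log2 fold change of 0.05 in Model against Blank and of -0.07, -0.09 and -0.18 in SYT, YJT and YJZYT against Model. In YJZYT 19 of 22 signalling genes were lower than in Model (median -0.19), and 10 of 12 NF-kappaB response genes (median -0.30). Of all tested genes, 42.3% were higher in that comparison.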

How the data were processed

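RNA of 15 rat bone libraries was sequenced after oligo(dT) selection, dUTP strand marking and ligation of adapters with molecular identifiers, per the labels' protocols. The submitters' processing notes list, without roles, HISAT2 2.0.4, StringTie 1.3.4d, cutadapt 1.9, edgeR, DESeq2 and UMI-tools. No source used here gives the build, the annotation, the strand setting or whether the identifiers were used, so overlapping, antisense or near-identical genes may share reads. For each gene the deposited table lists, per the file headers, a count (whole numbers) and an FPKM level in every library. A count of 4 occurred 5143 times against 3519 for 3 and 2314 for 5, so single low counts are read with care.

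Counts were tested with edgeR 4.0.16 in R 4.3.3 as deposited: filterByExpr (17657 genes kept, 4811 left out), TMM factors, a robust quasi-likelihood fit over the 5 groups in all 15 libraries (10 residual degrees of freedom), and adjustment over all tested genes. The fit was tested on simulated counts with less spread than the real libraries, so that test says nothing of power at the measured spread. The biological coefficient of variation was 42.7%. Standard errors were derived from each log2 fold change and its F statistic. Members, lists and the rule for naming genes were chosen with earlier results of these data known. The rule took the 10 genes with the highest mean FPKM, the 8 with the smallest p over the 5 groups, up to 3 in each direction with an unadjusted p under 0.05 in each comparison, and the receptors Cxcr2, Cxcr4 and Cx3cr1. It also named the receptors Ccr2 and Ackr1, which were not analysed here. Further genes serve as examples and were chosen after seeing their values. Alternatives were RLE factors, no low-count filter, a mean of at least 1 FPKM, DESeq2 1.42.0, limma 3.58.1 on log2(FPKM + pseudocount), with pseudocounts of 1 and 0.1 and genes reaching 1 FPKM in 3 libraries, a block for replicate number, the 6 compared libraries alone, and leaving out each library. Fits without YJT3 and YJZYT3, and without scaling factors, were added after seeing the data. Promoter sequences are from RefSeq (GRCr8), with 40 of 53 members matched by symbol. 1 member counted in all totals is not reported here by name or in the figures.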

Additional observations from a re-analysis of the deposited data

How the results depend on the processing

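No member passed the threshold with edgeR or limma under any setting tried, leaving out each library included (0 in each of the 4 comparisons and over the 5 groups). DESeq2 called 2 members over the 5 groups. Counts over all tested genes moved more. Model against Blank gave 4 genes, 300 with DESeq2, 40 with limma on log2(FPKM + 1), 2 with log2(FPKM + 0.1), 8 with only the 6 libraries compared, 0 without both YJT3 and YJZYT3 or without scaling factors, and 0 to 5 with 1 library left out. The test over the 5 groups gave 4 genes, 616 with DESeq2, 101 and 11 with limma at the larger and smaller pseudocount, 0 without both YJT3 and YJZYT3 or without scaling factors, and 0 to 5 with 1 library left out. SYT, YJT and YJZYT against Model gave 0 with edgeR and 28, 97 and 63 with DESeq2, and leaving out 1 library gave 0 to 1 for SYT and for YJZYT. The replicate number as a block gave 0 genes in Model against Blank and 0 over the 5 groups. Deviations of same-numbered libraries had correlations from -0.33 to 0.31 over the 12 pairs within the 4 comparisons. Pairs outside these comparisons, such as YJT3 with YJZYT3, were not correlated, and a shared batch was not tested. The median log2 fold change of the members ran from -0.12 to 0.19 with 1 library left out for Model against Blank (0.30 with all), and with limma on log2(FPKM + 0.1) was -0.38 for SYT (-0.05 in edgeR), -0.64 for YJT (-0.37) and -0.49 for YJZYT (-0.26) against Model. With log2(FPKM + 1) it was -0.30 for SYT. These limma medians cover only members that reached 1 FPKM in 3 libraries, a smaller set than in edgeR. In edgeR on genes with a mean of at least 1 FPKM the medians were -0.11 for SYT, -0.46 for YJT and -0.34 for YJZYT. Without scaling factors the median of all genes shifted by -0.25 for SYT, -0.14 for YJT and -0.15 for YJZYT against Model. Members on the higher side then numbered 16, 12 and 11, against 20, 17 and 13. The 13 named fold changes gave 176 values over all alternatives, and 1 value turned sign. That was Cxcl10 in YJZYT against Model, which ran from -0.13 to 1.88 with 1 library left out. Leave-outs that left both groups without a count gave no value for Cxcl3 and Ackr2. The causes were not tested. Depth limits the genes with few counts, among them Cxcl3 and Ackr2, at no more than 16 and 43 counts a library.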

Other observations

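The platelet chemokines Pf4 and Ppbp, whose symbols fall outside the naming pattern, were more abundant than most members. Pf4, stored in platelet granules, was at 1053, 555 and 791 FPKM in Blank, 950.5, 267 and 284 in Model, 126, 327 and 103 in SYT, 245, 531 and 1048 in YJT and 356, 444 and 1128 in YJZYT. Ppbp, which is cleaved to a ligand of Cxcr2, ran from 12.97 FPKM in SYT3 to 403 FPKM in Blank1. Both were lowest in SYT3. The 7 megakaryocyte markers, none at 0, summed to 136 to 377 FPKM in Blank, 39.7 to 340 in Model, 28.6 to 81.3 in SYT, 62.3 to 218 in YJT and 95.2 to 178 in YJZYT. Neither gene passed the edgeR test in any of the 4 comparisons.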
